A study of Mus musculus with 18 samples.

Results

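The respiratory chain of the mitochondrial inner membrane passes electrons from NADH and succinate to oxygen and uses the proton gradient that this builds to make ATP. Complex I oxidizes NADH, complex III passes electrons from ubiquinol to cytochrome c, complex IV reduces oxygen to water, and complex V is the ATP synthase. Most of their subunits are encoded in the nucleus, and the remainder in mitochondrial DNA. Macrophages stimulated with bacterial lipopolysaccharide (LPS) are known for a shift of their metabolism towards glycolysis.

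The genes described here were the protein-coding mouse genes whose symbols start with Nduf, Uqcr, Atp5 or Cox4 to Cox8. The rule found 90 Ensembl genes, of which 82 were among the 13598 genes with a value in the whole data set and 8 had none. Of the 82, 78 passed the filter of at least 1 FPKM in at least 3 of 18 libraries, which left 9707 genes of the whole data set for testing. FPKM counts fragments per length of transcript and per size of library, so levels may be compared between genes. The 78 tested genes held all 44 genes of complex I, 7 of 8 of complex III, 11 of 20 of complex IV and 16 of 18 of complex V. By its prefix, the complex I set included 8 assembly factors (Ndufaf1 to Ndufaf8), which help build the complex and are not part of it. Ndufa4, first found with complex I, was placed in complex IV, with which it is now known to associate.

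The libraries came from abdominal macrophages, taken from the peritoneal cavity of wild-type mice (WT) and of mice with the TLR4-K730R or TLR4-K810R mutation. In the mutants, made with CRISPR/Cas9 on the C57BL/6 background, the named lysine of the TIR domain of TLR4, the receptor for LPS, is replaced by arginine. The macrophages were drawn to the peritoneum with thioglycolate, so they are elicited cells and not the resident population. Cells of each genotype were left as mock-treated controls or given LPS at 100 ng/ml for 6 h. This made 6 groups, each of 3 libraries. Age and sex of the mice, and whether the libraries of a group came from separate mice, are not given in the sources used here. The p-values therefore measure the spread between these libraries, which may be technical. The values hold no sequence, so the mutations themselves could not be checked.

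Depth is unknown, because the files hold FPKM and no counts. Log2 values correlated between libraries of a group with r from 0.961 to 0.975 across genes, which are not independent replicates, and the highest r across groups was 0.974. The summed FPKM of 5 LPS-induced genes (Tnf, Il1b, Il6, Nos2, Cxcl10) was 16.2 to 30.2 in the control libraries and 1484 to 3647 in the LPS-treated ones. Of 6 macrophage markers, 5 had a value (Itgam had none), and they summed to 11590 to 14740 FPKM in the control libraries and 6877 to 9811 FPKM in the LPS-treated ones. After LPS, 4 of these 5 markers fell in WT and 4 in TLR4-K730R, while in TLR4-K810R 1 fell and 1 rose (limma, adjusted p below 0.01). The part of this shift in the LPS results was not tested. The T cell list summed to at most 0.958 FPKM in any library, while the neutrophil list reached 20.8 FPKM and the mast cell list 5.25 FPKM. Lists that differed between genotypes are given with the comparisons of the mutants. In bulk RNA, fewer cells of a type and less RNA per cell cannot be told apart.

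The members were mostly well expressed: 65 of 78 averaged at least 10 FPKM over the 18 libraries and 12 averaged at least 100 FPKM. The median level was 27.9 FPKM in complex I, 37.1 in complex III, 77.0 in complex IV and 63.4 in complex V. Atp5b, the catalytic beta subunit of ATP synthase, was the most abundant member at 254 FPKM, followed by Atp5l, a membrane subunit, at 216 FPKM. In complex IV, Cox6a1 averaged 160 FPKM and Cox5a 154 FPKM. In complex I, the accessory subunits Ndufa2 (118 FPKM) and Ndufb7 (112 FPKM) led. In complex III, Uqcrc1, a core protein of the matrix side, averaged 91.9 FPKM and Uqcrh, the hinge protein near cytochrome c1, 81.7 FPKM. The lowest of complex I were 2 assembly factors, Ndufaf4 and Ndufaf6, both at 1.16 FPKM, and the lowest of all tested members were Atp5s of complex V at 0.784 FPKM and Cox7a1 of complex IV at 0.816 FPKM.

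**Figure D1:**
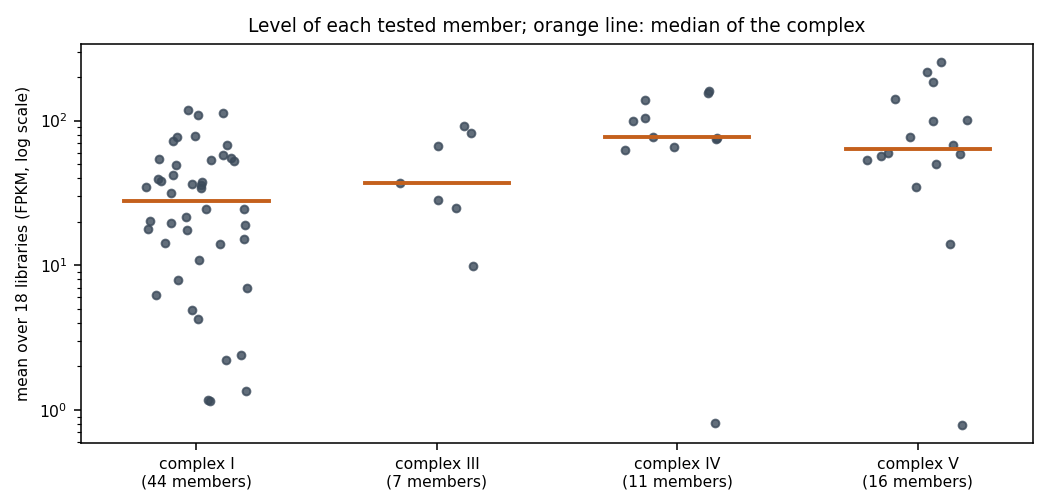
Each point is 1 tested member, placed by complex (horizontal) and by its mean FPKM over the 18 libraries (vertical, log scale), and the orange line is the median of the complex. Complex I has 44 members around a median of 27.9 FPKM, complex IV the highest median at 77.0 FPKM, and Atp5b of complex V the highest level at 254 FPKM.

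Some subunits exist in a common and a tissue-restricted form. Cox6a1 averaged 160 FPKM, while Cox6a2, its heart and muscle form, had no value. Cox7a2 averaged 74.3 FPKM against 0.816 FPKM for Cox7a1, its heart and muscle form. Cox6b1 averaged 138 FPKM, and Cox6b2, known from testis, stayed at or below 0.691 FPKM. Cox4i2, a form of Cox4 tied to lung and low oxygen, was listed at 0 in 17 libraries, and Ndufa4l2, a hypoxia-linked relative of Ndufa4, in 16. Of the genes for subunit c, the ring of the ATP synthase rotor, Atp5g3 averaged 100.4 FPKM and Atp5g1 14.0 FPKM, and Atp5g2 had no value. The remaining members without a value were Cox4i1, Cox7b2, Cox8b, Cox8c, Uqcrfs1, which is the Rieske iron-sulfur protein of complex III, and the second of 2 Ensembl genes named Atp5o. Cox8a reached at most 0.817 FPKM. For Cox4i1, Uqcrfs1 and Cox8a, subunits that respiring cells use, this is read as a limit of the listed transcript events and not of the cells. For the other members without a value, Cox6a2 and Atp5g2 included, absence from the cells and absence from the listed events cannot be told apart. The 13 subunits encoded in mitochondrial DNA lie outside the rule and had no value.

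The first comparison asked how LPS moved these transcripts in each genotype. In WT, 24 of the 78 members fell and 0 rose at an adjusted p below 0.01 (limma with Benjamini-Hochberg adjustment over 9707 genes). That is 30.8% of the members, where 23.9% of all tested genes fell. In TLR4-K730R, 33 members fell and 0 rose, 42.3% against 26.5% of all genes. In TLR4-K810R, 14 members fell and 0 rose, 17.9% against 19.7% of all genes. Without replicate 1 of every group, 5, 8 and 5 members were called lower (6.41%, 10.3% and 6.41%), below the 12.4%, 13.8% and 10.1% of all genes that fell in that setting. Without replicate 2, 11.7%, 24.7% and 3.90% of members fell, against 13.5%, 16.6% and 11.4% of all genes. Without replicate 3 these shares were 32.1%, 33.3% and 8.97% against 20.9%, 20% and 13.1%. In the fit of all 18 libraries, rises were called for 10.4%, 9.32% and 9.08% of all genes in WT, TLR4-K730R and TLR4-K810R.

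The median log2 difference of the members, LPS minus control on the log2(FPKM + 1) scale, was -0.49 for WT, -0.51 for TLR4-K730R and -0.32 for TLR4-K810R. The median of all tested genes was itself below 0, at -0.28, -0.36 and -0.26. The members' medians lay 0.21, 0.16 and 0.06 below it. In each genotype 71 of 78 members had a difference below 0, and 63 had one in all 3 genotypes. The share of all genes below 0 is not given here. Fewer members lay below the all-gene median of their genotype: 45 for TLR4-K810R, 54 for WT and 56 for TLR4-K730R. All 3 LPS libraries lay below all 3 control libraries for 45 members in WT (57.7%, against 39.5% of all genes), 49 in TLR4-K730R (62.8%, against 45.0%) and 34 in TLR4-K810R (43.6%, against 37.9%). With median-of-ratios scaling, which sets the all-gene medians to between -0.04 and -0.01, the members' medians were -0.17, -0.14 and -0.070. Their calls were then 6 lower and 1 higher in WT, 7 lower and 1 higher in TLR4-K730R, and 3 lower and 1 higher in TLR4-K810R. That is 8.97%, 10.3% and 5.13% of the members, where 29.7%, 29.0% and 24.1% of all genes were called in either direction and 14.2%, 13.5% and 11.7% fell, so with this scaling the share of members called lay below the background. With quantile normalization the order was the reverse: 33.3%, 39.7% and 24.4% of members fell, against 16.7%, 15.8% and 14.3% of all genes. The comparison with the background thus depended on the scaling.

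**Figure D2:**
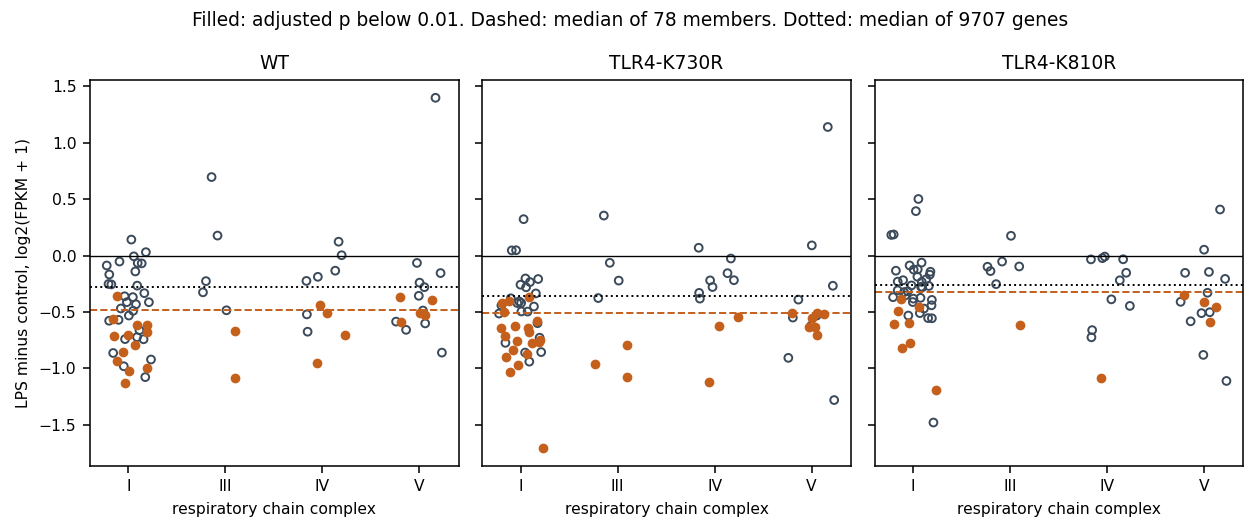
Each point is 1 member, with its LPS minus control difference on the log2(FPKM + 1) scale (vertical) by complex (horizontal) in WT, TLR4-K730R and TLR4-K810R. Filled points passed an adjusted p below 0.01, and all of them lie below 0. The dashed line is the median of the members (-0.49, -0.51 and -0.32) and the dotted line that of all tested genes (-0.28, -0.36 and -0.26).

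Members of every complex were among those that fell. In WT these were 13 of 44 in complex I, 2 of 7 in complex III, 4 of 11 in complex IV and 5 of 16 in complex V. In TLR4-K730R the counts were 20, 3, 3 and 7, and in TLR4-K810R 8, 1, 1 and 4. The median difference of complex I was -0.55 for both WT and TLR4-K730R and -0.32 for TLR4-K810R, and that of complex IV was -0.44, -0.28 and -0.22. Of all tested genes 23.9%, 26.5% and 19.7% fell in WT, TLR4-K730R and TLR4-K810R. Complex I had 29.5%, 45.5% and 18.2% and complex IV 36.4%, 27.3% and 9.09%. Differences between complexes were not tested.

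Summed over its members, complex I went from 1814 ± 105 FPKM (SD, n = 3) in WT control cells to 1184 ± 121 FPKM after LPS. Complex III went from 394.5 ± 41.7 to 283 ± 26.8 FPKM, complex IV from 1114 ± 50.6 to 864 ± 108 FPKM, and complex V from 1577 ± 17.2 to 1266 ± 141 FPKM. In TLR4-K730R, complex I went from 1819 ± 144 to 1159 ± 150 FPKM and complex V from 1571 ± 75.5 to 1206 ± 104 FPKM. In TLR4-K810R, complex I went from 1842 ± 228 to 1442 ± 125 FPKM and complex V from 1739 ± 73.6 to 1444 ± 125 FPKM. The 3 LPS libraries lay below the 3 control libraries for each of these sums. All members together held 1.46% ± 0.0246 of the FPKM of tested genes in WT control cells and 1.03% ± 0.105 after LPS. TLR4-K730R went from 1.42% ± 0.0617 to 1.03% ± 0.0820, and TLR4-K810R from 1.56% ± 0.0375 to 1.18% ± 0.0400.

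**Figure D3:**
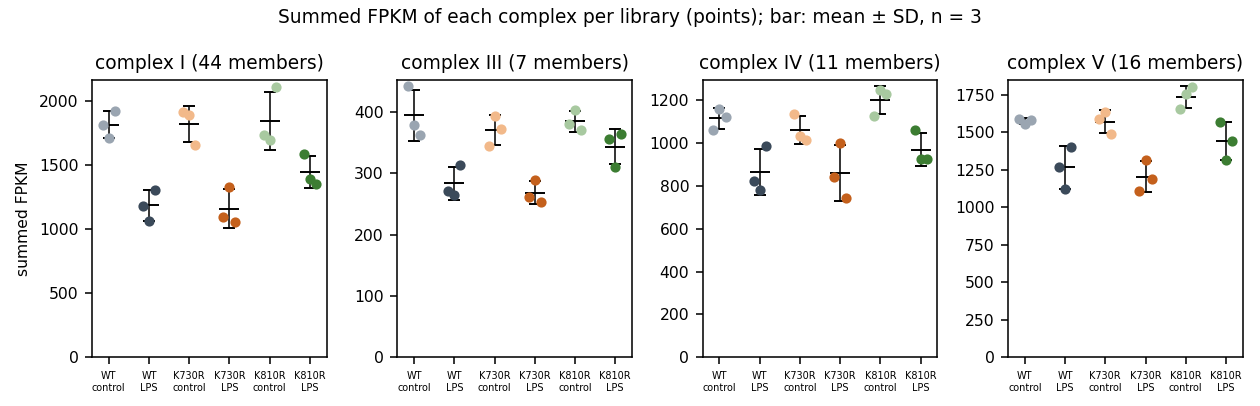
Summed FPKM (vertical, from 0) of the tested members of complexes I, III, IV and V in each library (points), by group, with the mean ± SD of 3 libraries. Complex I stands at 1814 FPKM in control and 1184 FPKM in LPS-treated WT cells, and at 1442 FPKM in LPS-treated TLR4-K810R.

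A set of 11 members fell in all 3 genotypes: Ndufs7, Ndufs8, Ndufv3, Ndufa9 and Ndufb11 of complex I, Uqcrh of complex III, Cox7a2l of complex IV, and Atp5c1, Atp5g3, Atp5j2 and Atp5l of complex V. They are 14.1% of the members, and 15.1% of all tested genes fell in all 3 genotypes, so this share is that of the background. A further 11 members fell in 2 genotypes (14.1%, against 7.39% of all genes), 16 in 1 (20.5% against 9.94%) and 40 in none (51.3% against 67.6%). Of the 11, Cox7a2l and Uqcrh fell in all 3 genotypes under each of 35 alternative settings, scaling and left-out libraries included. Other calls were less firm. When each of the 6 libraries of a comparison was left out in turn, at least 4 of the 6 fits lost the call for Atp5c1 in WT, Atp5g3 in WT and TLR4-K810R, Ndufa9 in all 3 genotypes, and Atp5l, Ndufb11, Ndufv3 and Ndufaf7 in TLR4-K810R. The same held in TLR4-K730R for Ndufa4, Ndufc2, Ndufv2, Ndufa2, Ndufb6, Ndufb8, Atp5h, Atp5mpl and Atp5o, and in WT for Atp5d, Ndufa1 and Ndufaf2. Such losses touched 6 of 24 calls in WT, 10 of 33 in TLR4-K730R and 6 of 14 in TLR4-K810R.

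Cox7a2l, known for a part in joining complexes III and IV into supercomplexes, gave the smallest adjusted p. Its activity in these mice was not measured. Its level in WT control cells was 92.3, 99.9 and 93.1 FPKM, and after LPS 47.8, 47.3 and 50.6 FPKM. In TLR4-K730R it was 101.9, 105 and 95.6 FPKM without and 47.9, 46.2 and 43.0 FPKM with LPS. In TLR4-K810R it was 104.7, 109.7 and 115.8 FPKM without and 50.4, 53.7 and 50.1 FPKM with LPS. The LPS-treated libraries of all 3 genotypes thus lay between 43.0 and 53.7 FPKM, below every control library. The log2 difference was -0.95 ± 0.08 (SE) for WT, -1.12 ± 0.08 for TLR4-K730R and -1.08 ± 0.08 for TLR4-K810R, with adjusted p of 1.51e-07, 2.14e-08 and 3.78e-08 by limma. By contrast Cox7a2, the subunit proper to complex IV that Cox7a2l resembles, stood at 70.4 ± 2.38 FPKM without and 64.3 ± 7.27 FPKM with LPS in WT. Its log2 differences were -0.13, -0.16 and -0.22, with adjusted p of 0.400, 0.317 and 0.178 by limma.

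Uqcrh was similarly tight. In WT it read 100.7, 105.1 and 100.5 FPKM without LPS and 63.8, 61.2 and 66.6 FPKM with it. In TLR4-K730R it read 90.3, 99.3 and 100.2 FPKM against 54.0, 58.7 and 52.9 FPKM, and in TLR4-K810R 103, 100.4 and 110.1 FPKM against 66.8, 66.3 and 69.8 FPKM. No LPS-treated library reached the level of any control library. The log2 differences were -0.67, -0.80 and -0.62, each ± 0.08 (SE), with adjusted p of 6.89e-06, 9.77e-07 and 1.87e-05 by limma. GENCODE holds 2 genes named as pseudogenes of Uqcrh, and how reads shared with such copies were assigned is not given in the sources used here. The same holds for Atp5l, with 2 such genes, and for Atp5c1, Atp5k and Ndufab1, with 1 each.

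**Figure D4:**
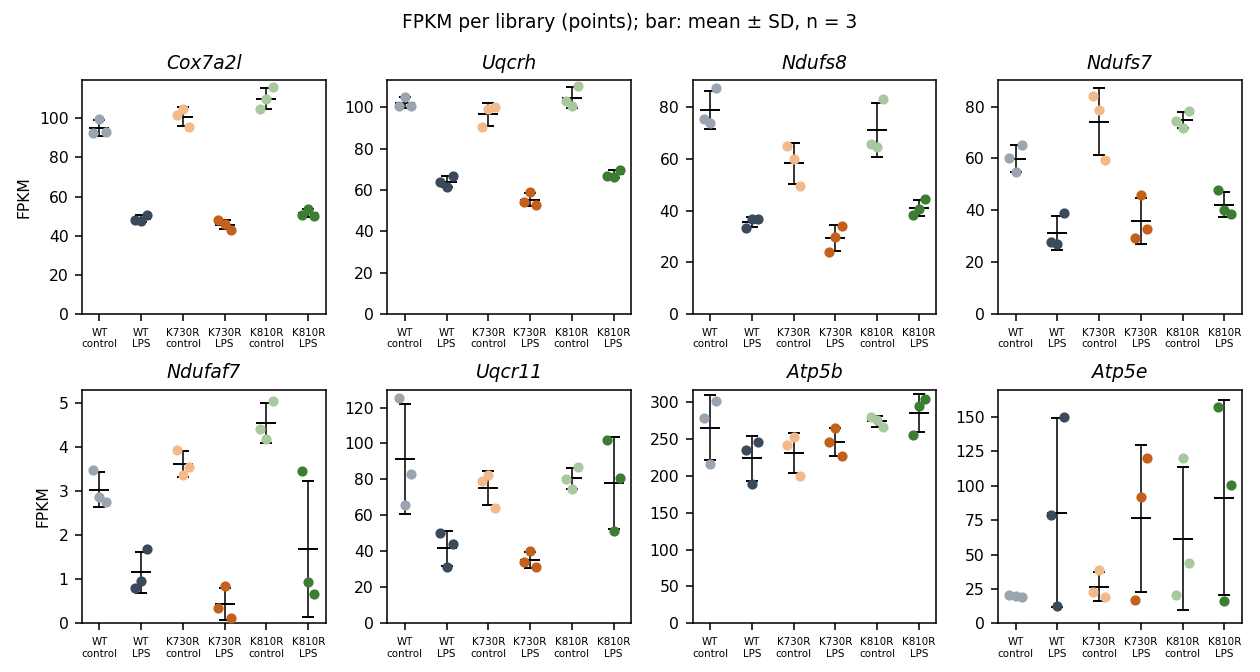
FPKM (vertical, from 0) of 8 members in each library (points), by group, with the mean ± SD of 3 libraries. For Cox7a2l and Uqcrh the LPS-treated libraries of the 3 genotypes lie in a narrow band below all control libraries, while Atp5e spans 12.6 to 157 FPKM with overlap between the groups.

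The promoters of 5 of the 11 members that fell in all 3 genotypes are shown, as examples chosen after their values and motifs were seen, to place these genes in the genome and to show which known letters they hold. Of the 11, 6 held none of the 4 motifs searched, among them Ndufs8. For Atp5c1, which has 2 windows, the one nearest to the first exon of the files is given. They are the 250 bases before the RefSeq start in GRCm38.p6, on the gene's strand. Cox7a2l lies at chr17:83514334-83514583, Uqcrh at chr4:116075071-116075320, Atp5l at chr9:44920743-44920992, Atp5c1 at chr2:10080433-10080682 and Ndufs8 at chr19:3912775-3913024, all on the minus strand. Capitals mark a match to 1 of 4 motifs on either strand: CCGGAAG (ETS factors such as GABP), GCGCANGCG (NRF1), AAGATGGCG (YY1) and GGGCGG (SP1). No letters in these windows belong to 2 matches. NRF1 and GABP are the factors classically tied to nuclear genes of the respiratory chain.
Cox7a2l: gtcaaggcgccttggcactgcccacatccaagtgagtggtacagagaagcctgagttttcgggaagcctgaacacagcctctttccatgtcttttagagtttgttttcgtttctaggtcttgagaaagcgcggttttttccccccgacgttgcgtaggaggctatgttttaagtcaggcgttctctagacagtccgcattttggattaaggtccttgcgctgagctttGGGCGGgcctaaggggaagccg
Uqcrh: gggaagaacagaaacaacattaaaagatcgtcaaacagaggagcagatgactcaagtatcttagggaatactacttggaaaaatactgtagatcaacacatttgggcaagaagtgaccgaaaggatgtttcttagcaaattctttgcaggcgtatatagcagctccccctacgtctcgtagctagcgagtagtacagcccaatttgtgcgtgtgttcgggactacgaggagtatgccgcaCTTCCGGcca
Atp5l: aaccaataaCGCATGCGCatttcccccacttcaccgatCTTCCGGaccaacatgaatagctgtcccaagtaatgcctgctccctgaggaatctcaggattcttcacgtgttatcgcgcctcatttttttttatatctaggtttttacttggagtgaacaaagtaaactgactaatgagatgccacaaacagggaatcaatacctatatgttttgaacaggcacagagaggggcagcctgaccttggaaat
Atp5c1: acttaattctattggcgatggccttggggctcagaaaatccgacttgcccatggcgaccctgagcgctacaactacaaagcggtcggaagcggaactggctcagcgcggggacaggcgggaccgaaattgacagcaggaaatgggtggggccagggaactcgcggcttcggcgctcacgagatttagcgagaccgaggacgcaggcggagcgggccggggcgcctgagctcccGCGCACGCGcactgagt
Ndufs8: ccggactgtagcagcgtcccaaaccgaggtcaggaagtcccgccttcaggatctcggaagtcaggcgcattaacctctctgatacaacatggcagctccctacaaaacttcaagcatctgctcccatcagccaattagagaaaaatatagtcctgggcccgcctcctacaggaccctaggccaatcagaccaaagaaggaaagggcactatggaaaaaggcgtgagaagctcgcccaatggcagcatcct

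The file's own first exons start at or within 11 bases of these RefSeq starts. Uqcrh carries the ETS letters 10 to 4 bases before its start, Atp5c1 the NRF1 letters 17 to 9 bases before, and Cox7a2l the SP1 letters 22 to 17 bases before. Atp5l holds both the NRF1 letters, 241 to 233 bases before its start, and the ETS letters, 212 to 206 bases before it. The window of Ndufs8 held none of the 4 motifs. Among the 71 members with a promoter window in the RefSeq table, 13 (18.3%) held the ETS letters and 13 (18.3%) the NRF1 letters. Among all 27025 genes with a window, the shares were 7.83% and 5.86%. The SP1 letters stood in 39.4% of members and 35.4% of all genes, and the YY1 letters in 1.41% and 0.71%. Of the 11 members that fell in all 3 genotypes, 2 held the ETS letters and 2 the NRF1 letters. Of the 30 members with a window that were called in no genotype, 5 held the ETS and 5 the NRF1 letters. Such matches are descriptions of the sequence, and no binding was measured.

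The core of complex I holds the redox centres. Ndufs8 and Ndufs7, which carry iron-sulfur clusters near the ubiquinone site, fell in all 3 genotypes. Ndufs8 read 75.3, 74.0 and 87.2 FPKM in control and 33.3, 36.6 and 36.7 FPKM in LPS-treated WT cells. In TLR4-K730R it read 64.9, 60.1 and 49.6 against 24.0, 29.8 and 34.1 FPKM, and in TLR4-K810R 65.8, 64.7 and 83.2 against 38.2, 40.4 and 44.4 FPKM. The groups with and without LPS did not overlap in any genotype. Its log2 difference was -1.13 ± 0.14 (SE), the largest fall called in WT, then -0.97 ± 0.14 and -0.77 ± 0.14, with adjusted p of 7.64e-06, 3.51e-05 and 0.000364 by limma. Ndufs7 went from 60.0 ± 5.07 to 31.2 ± 6.60 FPKM in WT, from 74.1 ± 12.9 to 35.9 ± 8.88 FPKM in TLR4-K730R and from 74.8 ± 3.26 to 42.1 ± 4.87 FPKM in TLR4-K810R. Its log2 differences were -0.93, -1.04 and -0.82 (adjusted p of 0.000420, 0.000161 and 0.00147 by limma).

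Other core subunits moved less evenly. Ndufs3 fell in TLR4-K730R by 0.64 ± 0.12 on the log2 scale (adjusted p = 0.000445, limma), with differences of -0.25 in WT and -0.37 in TLR4-K810R that missed the threshold. Ndufv2 was called lower in TLR4-K730R as well, at -0.37 ± 0.10 (adjusted p = 0.00500, limma), but its difference was 0.018 with median-of-ratios scaling. Ndufv1, which binds NADH, went from 32.3 ± 3.39 to 15.9 ± 1.94 FPKM in WT without passing the threshold (adjusted p = 0.0197, limma). For Ndufv1, a TLR4-K730R control library read 8.65 FPKM beside 28.2 and 26.4 FPKM in the others. Ndufs1, the largest subunit, had a log2 difference of -0.86 in WT (adjusted p = 0.0490, limma), -0.77 in TLR4-K730R and -0.23 in TLR4-K810R.

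Of the 29 accessory subunits of complex I, 15 fell in TLR4-K730R (51.7%), 9 in WT (31.0%) and 5 in TLR4-K810R (17.2%), beside 26.5%, 23.9% and 19.7% of all genes. Ndufv3, Ndufb11 and Ndufa9 fell in all 3 and are named here after their values were seen. Ndufv3 went from 50.9 ± 3.97 to 29.1 ± 3.90 FPKM in WT, with log2 differences of -0.79, -0.87 and -0.45. Ndufb11 went from 58.3 ± 9.42 to 35.0 ± 4.19 FPKM in WT, with differences of -0.72, -0.89 and -0.49. Ndufa9 moved least, from 36.4 ± 1.95 to 28.3 ± 1.83 FPKM in WT, with differences of -0.35, -0.40 and -0.38, and its calls were lost in 5, 4 and 5 of the 6 fits without 1 library. Ndufb10 fell in WT, from 92.9 ± 7.88 to 46.8 ± 15.2 FPKM (-1.03 ± 0.24, adjusted p = 0.00209 by limma). In TLR4-K810R it read 64.4, 56.1 and 102.8 FPKM without and 75.5, 63.6 and 59.6 FPKM with LPS, and the groups overlapped. Ndufc2 fell in TLR4-K730R (-0.42, and -0.034 with median-of-ratios scaling) and TLR4-K810R (-0.61 ± 0.11, adjusted p = 0.000297 by limma), with a difference of -0.17 in WT. Ndufs4 was 1 of 2 members with a difference above 0 in all 3 genotypes (0.14, 0.32 and 0.39), none of them called.

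Among the assembly factors, Ndufaf7, a methyltransferase, stood lower after LPS in most libraries. It read 3.48, 2.86 and 2.74 FPKM without and 0.812, 0.954 and 1.69 FPKM with LPS in WT (adjusted p = 0.0159, limma). In TLR4-K730R it read 3.93, 3.36 and 3.55 against 0.351, 0.838 and 0.129 FPKM, a log2 difference of -1.71 ± 0.29 (adjusted p = 0.000152, limma), the largest called fall of any member. In TLR4-K810R it read 4.41, 4.17 and 5.05 against 3.45, 0.931 and 0.660 FPKM (-1.19 ± 0.29, adjusted p = 0.00365, limma). The first LPS-treated TLR4-K810R library thus stood near the control level. Ndufaf2 fell in WT, from 5.49 ± 0.277 to 2.36 ± 0.994 FPKM (-0.99 ± 0.28, adjusted p = 0.00890, limma). This call was lost without each of 5 of the 6 WT libraries in turn, and under 5 of 12 other alternatives. Ndufaf4 and Ndufaf6 were not called in any genotype.

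In complex III, Uqcr11, a small accessory subunit, fell in WT and TLR4-K730R. It read 125.2, 66.0 and 83.3 FPKM without and 49.99, 31.2 and 44.1 FPKM with LPS in WT, a log2 difference of -1.09 ± 0.25 (adjusted p = 0.00198, limma). In TLR4-K730R it read 78.9, 82.2 and 64.4 against 34.2, 40.1 and 31.3 FPKM (-1.07 ± 0.25, adjusted p = 0.00212, limma). In TLR4-K810R it read 80.0, 74.9 and 86.7 FPKM without and 101.9, 51.3 and 81.1 FPKM with LPS, and these groups overlapped (-0.10 ± 0.25, adjusted p = 0.787, limma). Uqcr10 fell in TLR4-K730R, from 13.8 ± 2.30 to 6.58 ± 1.14 FPKM (-0.96 ± 0.20, adjusted p = 0.000930, limma). Uqcrc1 had differences of -0.48, -0.22 and 0.18 and Uqcrq of -0.23, -0.38 and -0.14, with no call. Uqcrc2 read 39.9, 41.3 and 7.51 FPKM in WT control cells, and the third of these stands far below the other libraries (difference 0.70, adjusted p = 0.198, limma). Uqcrb had a difference of 0.18 in WT (adjusted p = 0.280, limma) and was called higher, at 0.50, with median-of-ratios scaling.

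In complex IV, most members other than Cox7a2l were not called. Cox5a, a subunit of the matrix side, fell in WT from 184.6 ± 6.18 to 136.3 ± 12.1 FPKM (-0.44 ± 0.10, adjusted p = 0.00162, limma). In TLR4-K730R it went from 165.2 ± 13.4 to 136.1 ± 12.1 FPKM without a call, and in TLR4-K810R it stood at 152.4 ± 5.96 FPKM without and 151.5 ± 5.52 FPKM with LPS. Cox7b, a small subunit, fell in WT (-0.51 ± 0.13, adjusted p = 0.00374 by limma) and TLR4-K730R (-0.62 ± 0.13, adjusted p = 0.000771 by limma), with a difference of -0.39 in TLR4-K810R that missed the threshold. Ndufa4 fell in WT (-0.70) and TLR4-K730R (-0.54), but its summed first-exon FPKM gave 0.66 in TLR4-K730R, so its direction there depends on which end of the transcript was counted. Cox6a1 had a wide spread, with 153.5, 126 and 266.8 FPKM in WT control cells, and was not called. Cox6b1 had differences of -0.19, -0.22 and -0.02, and Cox7a1 of -0.52, -0.33 and -0.72 at a level near the filter, with no call.

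In complex V, the F1 head makes ATP and the Fo part carries protons through the membrane. Of 10 members of the Fo part and the stalks, 6 fell in TLR4-K730R (median -0.63), 3 in WT (median -0.50) and 3 in TLR4-K810R (median -0.46). Of 5 members of F1, 1 fell in TLR4-K730R (median -0.27), 2 in WT (median -0.24) and 1 in TLR4-K810R (median -0.15). Of all genes, 26.5%, 23.9% and 19.7% fell, with medians of -0.36, -0.28 and -0.26, so the F1 medians lay above those of all genes. The 2 subunits that form the catalytic hexamer were not called in any genotype. Atp5b read 277.7, 215.7 and 301.2 FPKM without and 235.3, 189 and 246 FPKM with LPS in WT, with overlap, and its differences were -0.24, 0.09 and 0.05. In TLR4-K730R it was called higher, at 0.50, with median-of-ratios scaling. Atp5a1 had differences of -0.15, -0.27 and -0.21, but its summed last-exon FPKM gave -2.34, -0.26 and -1.07 (adjusted p = 0.000636 in WT, limma), so the size depends on which end of the transcript was counted. Atp5c1, the central shaft of F1, fell from 76.0 ± 4.10 to 57.7 ± 4.47 FPKM in WT (-0.39, -0.52 and -0.46 in the 3 genotypes). Its WT call was lost with summed last-exon FPKM (adjusted p = 0.0326, limma), with the compared groups alone and with median-of-ratios scaling (-0.069).

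Of the membrane part, Atp5l fell from 233.8 ± 10.1 to 164.2 ± 14.3 FPKM in WT (-0.51, -0.55 and -0.41), and Atp5j2 from 68.7 ± 0.554 to 47.3 ± 3.17 FPKM (-0.53, -0.51 and -0.59). Atp5g3, the abundant gene for subunit c, fell from 107.5 ± 6.18 to 82.9 ± 4.55 FPKM in WT (-0.37, -0.51 and -0.35), while the less abundant Atp5g1 had differences of -0.59, -0.91 and -0.41 without a call. Atp5e, the small epsilon subunit of F1, had the largest standard error of the tested members. It read 20.4, 19.9 and 19.02 FPKM in WT control cells, and 78.5, 12.6 and 150.0 FPKM after LPS. The LPS-treated libraries thus stood on both sides of the control libraries, and its difference of 1.40 ± 0.94 was not called (adjusted p = 0.237, limma). Atp5s, an associated factor, averaged 0.784 FPKM and was not called.

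Atpif1, the inhibitor that blocks ATP hydrolysis by complex V, lies outside the prefixes and was described beside it. It read 78.9, 107 and 131 FPKM without and 32.1, 26.3 and 53.3 FPKM with LPS in WT, with no overlap (-1.51 ± 0.24, adjusted p = 9.11e-05, limma). In TLR4-K730R it read 124, 98.2 and 97.2 against 39.9, 59.9 and 38.3 FPKM (-1.21 ± 0.24, adjusted p = 0.000660, limma). In TLR4-K810R it read 136, 105 and 106 against 61.6, 70.6 and 73.8 FPKM, which also did not overlap but missed the threshold (-0.74 ± 0.24, adjusted p = 0.0233, limma).

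**Figure D5:**
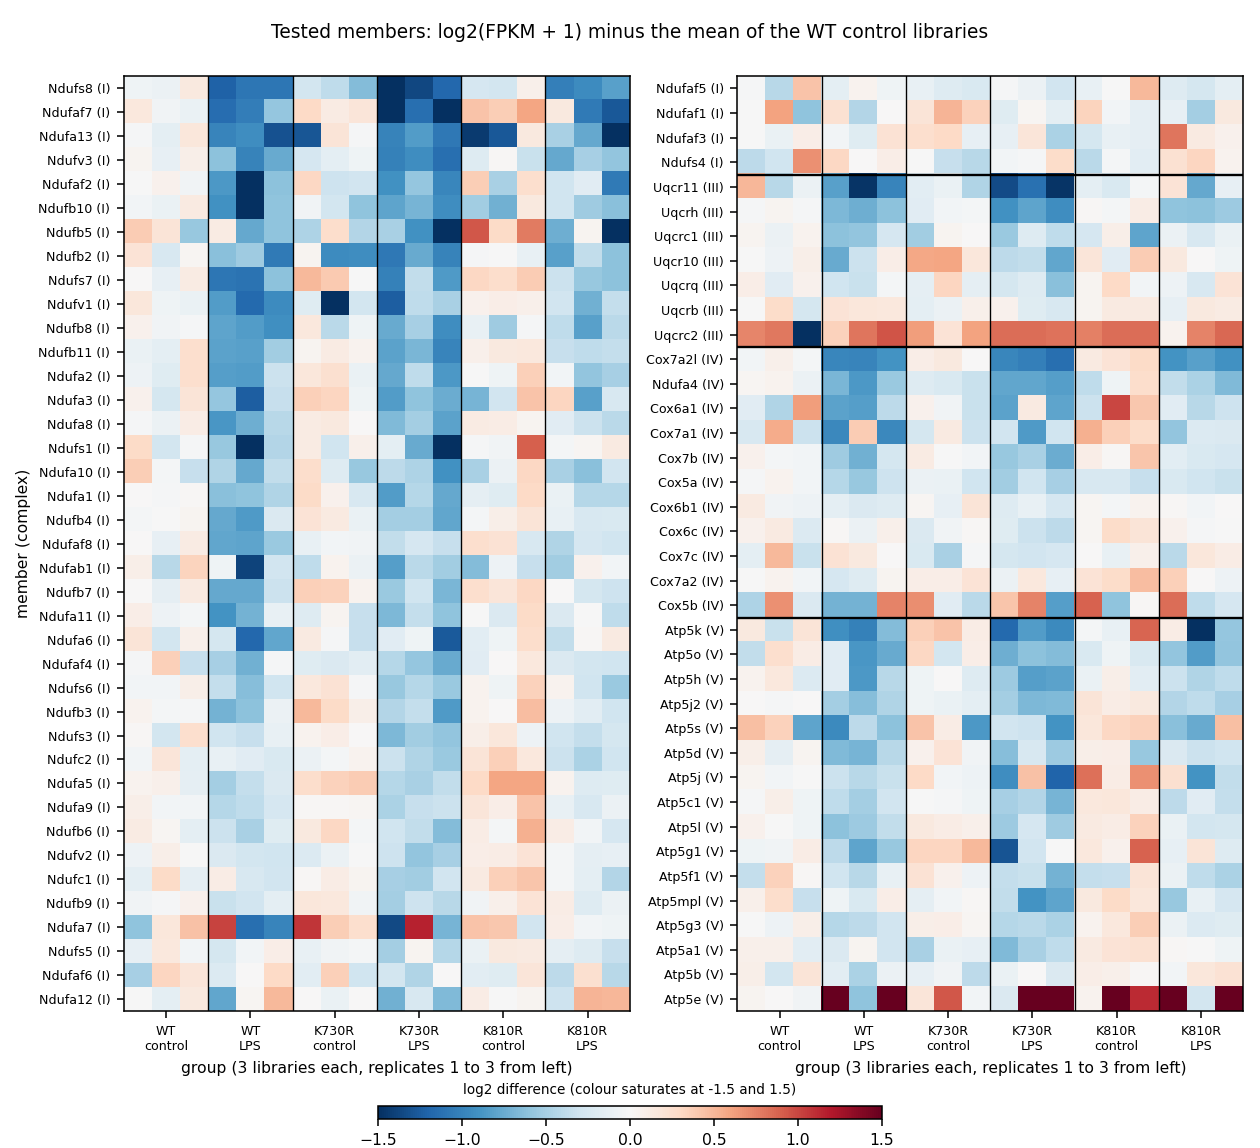
Tested members (vertical, with their complex) in 18 libraries (horizontal, grouped), coloured by log2(FPKM + 1) minus the mean of the WT control libraries. Blue, lower values run through most rows of complex I in the LPS-treated groups, and Cox7a2l and Uqcrh are even across the 9 LPS-treated libraries, while Atp5e changes colour within groups.

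The second set of comparisons asked whether either mutation changed these transcripts. Without LPS, 0 of 78 members were called between TLR4-K730R and WT by limma, where 0.268% of all genes were called. Unadjusted p below 0.05 was found for 5 members (6.41%, against 7.7% of all genes). Between TLR4-K810R control cells and WT, 0 members were called by limma against 1.58% of all genes, with 6 members (7.69%) at an unadjusted p below 0.05 against 14.1% of all genes. The member closest to a call was Ndufa5, an accessory subunit named here for its value, with 17.3 ± 1.39 FPKM in WT and 24.7 ± 2.95 FPKM in TLR4-K810R (0.49 ± 0.12, adjusted p = 0.0263, limma).

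With LPS, 0 members were called by limma between TLR4-K730R and WT, as were 0.0% of all genes, with 8 members (10.3%) at an unadjusted p below 0.05 against 7.69% of all genes. Between LPS-treated TLR4-K810R and WT, 0 members were called by limma, against 0.134% of all genes, with 15 members (19.2%) at an unadjusted p below 0.05 against 21.8% of all genes. In this last comparison 63 of 78 members stood above 0, with a median of 0.20 where the median of all genes was 0.11. The 637 tested genes with a longest transcript of up to 1500 bases and a mean of at least 10 FPKM had a median of 0.19, close to that of the members. The TLR4-K810R libraries all lay above the WT libraries for 21 members (26.9%, against 17.4% of all genes). The smallest adjusted p was that of Uqcr11, at 0.0719 (0.86 ± 0.25, limma). Without the third LPS-treated WT library 1 member was called, Ndufb4, at 0.61 (adjusted p = 0.00767, limma). The only other alternative with this call was that without replicate 3 of all groups. The share of all genes called in these fits is not given here.

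The mesothelium and fibroblast markers (7 of 7 with a value) summed to 31.3 to 48.2 FPKM in WT control cells, 42.7 to 141 FPKM in LPS-treated WT cells, 113 to 274 FPKM in TLR4-K810R control cells and 101 to 121 FPKM in LPS-treated TLR4-K810R. For TLR4-K730R these sums were 59.5 to 68.2 FPKM without and 47.3 to 47.7 FPKM with LPS. The intestinal epithelium list (8 of 9 with a value) ranged from 0.118 to 0.594 FPKM in WT, from 7.53 to 38.1 FPKM in TLR4-K730R and from 11.5 to 54.6 FPKM in TLR4-K810R control cells. The highest LPS-treated library had 11.4 FPKM for WT, 14.2 FPKM for TLR4-K730R and 5.14 FPKM for TLR4-K810R. The macrophage list summed to 13420 to 14740 FPKM in control and 6877 to 9237 FPKM in LPS-treated WT cells, and to 11590 to 13900 and 8852 to 9811 FPKM in TLR4-K810R. The LPS-induced list reached 2907 to 3035 FPKM in LPS-treated WT cells, where TLR4-K730R had 3058 to 3647 FPKM and TLR4-K810R had 1484 to 2263 FPKM. The part of these differences in the members' values was not tested.

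The difference between the LPS responses was tested directly. At an adjusted p below 0.01 in limma, 0 of 78 were called for TLR4-K730R against WT, where 0.0412% of all genes were called, and 0 of 78 for TLR4-K810R, against 0.124%. At an unadjusted p below 0.05 there were 6 members (7.69%) for each mutant, against 7.02% and 13.2% of all genes. The responses of the mutants were not tested against each other, so the counts of 33 falls in TLR4-K730R and 14 in TLR4-K810R are values side by side. The intervals were wide: the 95% interval of a response difference reached 0.53 to either side on the log2 scale at the median, and under 0.5 for 35 of 78 members. For Cox7a2l the response differed by -0.17 (95% interval -0.42 to 0.08) in TLR4-K730R and by -0.13 (-0.38 to 0.12) in TLR4-K810R. For Uqcrh the differences were -0.13 (-0.38 to 0.12) and 0.05 (-0.20 to 0.30). For Uqcr11 in TLR4-K810R the difference was 0.99 (0.25 to 1.74), with an adjusted p of 0.249 by limma.

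Genes around the chain were taken from lists by function. Of the 4 subunits of complex II, succinate dehydrogenase, 3 fell in TLR4-K810R and 2 in each of the other genotypes. Sdhb, its iron-sulfur subunit, fell in all 3 genotypes by 0.77, 0.63 and 0.47 on the log2 scale, and Sdhd, a membrane anchor, by 0.38, 0.38 and 0.34. The mobile carrier cytochrome c went the other way: Cycs rose from 11.3 to 37.7 FPKM (group means) in WT, from 11.6 to 28.6 FPKM in TLR4-K730R and from 12.4 to 27.5 FPKM in TLR4-K810R. Its log2 differences were 1.65, 1.23 and 1.09, with adjusted p of 1.88e-07, 4.89e-06 and 2.14e-05 by limma. Cyc1, the cytochrome c1 subunit of complex III, had differences of -0.53, -0.56 and -0.07 without a call. Carriers and channels of the mitochondrial membranes fell for 4 of 7 genes in each genotype (57.1%, beside 23.9%, 26.5% and 19.7% of all genes). Of these, Ucp2, an uncoupling protein family member, fell by 1.09, 2.11 and 0.999 on the log2 scale, and Slc25a3, the phosphate carrier, by 0.70, 0.60 and 0.59. Slc25a4, a carrier that exchanges ADP for ATP, fell by 0.65, 0.67 and 0.51, and Vdac2, an outer membrane channel, by 0.49, 0.44 and 0.59.

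Of 31 tested assembly factors outside the prefixes, 2 rose and 5 fell in WT, 2 rose and 6 fell in TLR4-K730R, and 1 rose and 2 fell in TLR4-K810R. The shares that fell, 16.1%, 19.4% and 6.45%, were below the 23.9%, 26.5% and 19.7% of all genes, and so were those that rose (6.45%, 6.45% and 3.23%). Higd2a, tied to complex IV and supercomplexes, fell in all 3 genotypes by 1.22, 1.22 and 0.82 on the log2 scale, and Tmem126b, a complex I assembly factor, by 1.09, 1.27 and 0.97. Coa5 rose in all 3, by log2 differences of 1.101, 0.88 and 0.75. Of 11 tested transcriptional regulators, 0 rose in any genotype, and 1, 2 and 0 fell in WT, TLR4-K730R and TLR4-K810R by limma. Those that fell were Polrmt, the mitochondrial RNA polymerase, with differences of -0.99 and -0.69 in WT and TLR4-K730R, and Gabpb2, with -1.05 in TLR4-K730R. Nrf1 had differences of -0.49, -0.21 and -0.37 and Gabpa of -0.22, -0.26 and -0.44, with no call.

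The members had shorter transcripts than most genes. The median of their longest annotated transcripts was 1135 bases, against 3325 bases for all tested genes. Among the 637 tested genes with a longest transcript of up to 1500 bases and a mean of at least 10 FPKM, the median LPS difference was -0.35 for WT, -0.42 for TLR4-K730R and -0.22 for TLR4-K810R. The members' medians of -0.49, -0.51 and -0.32 were lower than these by 0.13, 0.09 and 0.10, and this gap was not tested.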

How the data were processed

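RNA-seq was compared between 6 groups of 3 libraries, grouped by the sample labels. The authors deposited FPKM values, normalized for length and library size, in one row per transcript event (first exon, last exon, skipped exon and so on) with an Ensembl gene number. The aligner and the quantifying program are not given in the sources used here. The submitters' notes name a human build, but the coordinates match mouse GRCm38. Depth is unknown.

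Only events overlapping the named gene of GENCODE M21, on its strand, were kept, which dropped 6.24% of first-exon and last-exon FPKM. For each gene and library, first-exon FPKM and last-exon FPKM were summed apart and the higher sum was taken, and a value may be partial where an end is not listed. Genes at 1 FPKM or more in 3 or more libraries were tested on log2(FPKM + 1) with limma 3.58.1 (R 4.3.3), fitting all groups together (trend=TRUE) and adjusting by Benjamini-Hochberg over 9707 genes, at an adjusted p below 0.01. A fold change on this scale understates that of low genes. Tables were made with Python 3.11.15 and pandas 2.3.3, and the fit was tested on simulated data.

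Members, lists and alternatives were chosen with earlier results of these data known. Named members come from the 2 highest and 2 lowest of each complex, the up to 6 largest called changes of each LPS comparison, isoform sets, core subunits and, of other lists, up to 4 called genes in each direction, while Ndufv3, Ndufb11, Ndufa9, Ndufs4, Ndufa5, Uqcrc2, Uqcrb, Ndufb4, Cox7b, Atp5c1, Atp5j2 and Atp5e were chosen after their values were seen. Replicate numbers showed no pairing of the libraries: same-numbered deviations correlated at no more than 0.099. Pairing by mouse under other numbers was not tested.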

Additional observations from a re-analysis of the deposited data

How the results depend on the processing

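The medians of the members stayed below 0 for LPS in all 3 genotypes under every alternative run, but the number of calls did not hold. With median-of-ratios scaling, 7 members were called for WT, 8 for TLR4-K730R and 4 for TLR4-K810R, against 29.7%, 29.0% and 24.1% of all genes, with medians of -0.17, -0.14 and -0.070, and the shift of the all-gene median is part of this by construction. With quantile normalization, 26, 31 and 20 members were called. Falls alone then made up 33.3%, 39.7% and 24.4% of members, against 16.7%, 15.8% and 14.3% of all genes. At an adjusted p below 0.05, LPS gave 38, 41 and 25 calls (48.7%, 52.6% and 32.1% of members) in WT, TLR4-K730R and TLR4-K810R. In either direction, 47.4%, 48.8% and 40.3% of all genes were called. All of these member calls were falls, and 33.8%, 37% and 28.7% of all genes fell. At this threshold 1 member (Ndufa5) was called between TLR4-K810R control cells and WT. With the compared groups alone, 17, 26 and 8 fell in WT, TLR4-K730R and TLR4-K810R (21.8%, 33.3% and 10.3%, where 17%, 21.1% and 14.3% of all genes fell). Leaving out libraries, which leaves fewer samples, gave 5 to 26 calls in WT (6.41% to 33.3%, against 19.2% to 33.7% of all genes), 8 to 28 in TLR4-K730R (10.3% to 35.9% against 20.6% to 32.3%) and 3 to 13 in TLR4-K810R (3.90% to 16.7% against 16% to 25.3%). The share of members was below that of all genes in 8, 2 and 9 of these 9 fits. These all-gene shares count both directions, while all member calls in these fits were falls. Against the share of all genes that fell, the members lay below in every fit of TLR4-K810R. In most fits of WT and TLR4-K730R they lay above it. With 1 library of the compared groups left out at a time, 12 of 24 calls in WT, 20 of 33 in TLR4-K730R and 8 of 14 in TLR4-K810R held each time. The lowest counts of calls, all falls, are set beside the share of all genes that fell. They were 5, 8 and 5 without replicate 1 of all groups, and 9, 19 and 3 without replicate 2 (11.7%, 24.7% and 3.90%, against 13.5%, 16.6% and 11.4%). They were 7 (8.97% against 13.1%) in TLR4-K810R without replicate 3, 12 (15.4% against 18.6%) in WT without its LPS replicate 2 and 8 (10.3% against 16%) in TLR4-K810R without its LPS replicate 3. Between LPS-treated TLR4-K810R and WT the count ranged from 0 to 1 (Ndufb4), and the median between LPS-treated TLR4-K730R and WT from -0.23 to 0.024. The direction turned for Ndufv2 in TLR4-K730R with median-of-ratios scaling (0.018) and for Ndufa4 in TLR4-K730R with summed first-exon FPKM (0.66), and the cause was not tested. The number of members lower in all 3 genotypes ranged from 2 to 18.

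A replicate block was tried although the numbers showed no pairing of the libraries, and no library correlated best with its own number. With it, 20, 31 and 12 members fell in WT, TLR4-K730R and TLR4-K810R (25.6%, 39.7% and 15.4%, where 22.3%, 25.1% and 18.6% of all genes fell). Depth is unknown, so no counting error can be given, and members without listed transcript ends cannot be judged. Leaving out replicate numbers and restricting to genes with first-exon and last-exon sums within 1.1 times were added after seeing the data.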
